A study of Mus musculus with 24 samples.

Results

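Cr2, Fcgr2b, Mfge8, Clu, Coch, Bst1 and Sox9 are 7 genes used to mark follicular dendritic cells and marginal reticular cells, the stromal cells of the B cell follicle. They were picked by name, and each matched 1 of the 36528 gene models counted in every library through its mouse Entrez identifier (Cr2 12902, Fcgr2b 14130, Mfge8 17304, Clu 12759, Coch 12810, Bst1 12182, Sox9 20682). The study sorted fibroblastic reticular cells (FRCs) and endothelial cells of high endothelial venules (HEVs) from Peyer's patches, the lymphoid follicles of the gut wall. Mice were left unperturbed or drank 10% (w/v) PEG ad libitum for 3 days, a treatment meant by the submitters to lower fluid flow, and 1000 cells per mouse went into a library. There were 7 control FRC, 7 PEG FRC, 4 control HEV and 6 PEG HEV libraries. The labels give no genetic change, strain, age or sex for any group, and they do not say which surface markers set the sort gates or whether FRC and HEV libraries came from the same mice.

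Follicular dendritic cells hold antigen on their surface for B cells, catching immune complexes with complement receptors, of which Cr2 encodes the main pair, and with the inhibitory IgG receptor Fcgr2b. They also secrete Mfge8, which bridges dying cells to phagocytes, the chaperone clusterin (Clu) and cochlin (Coch). Marginal reticular cells form the outer rim of the follicle, below the dome epithelium in a Peyer's patch, and are known for the chemokine Cxcl13, the cytokine Tnfsf11 (RANKL) and the adhesion molecule Madcam1. Bst1 (CD157) is an ectoenzyme of several lymphoid stromal and endothelial cells, and Sox9 is a transcription factor of cartilage, gut epithelial crypts and some stroma. Cr2 and Fcgr2b are also B cell genes, and Fcgr2b is a gene of macrophages too, so their reads in a sorted library do not name a cell by themselves.

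RefSeq promoter windows of the assembly GRCm38.p6, running from 250 bases before to 50 bases after the annotated gene start, were matched for 4 of the 7 members. Those of the most abundant member in FRC (Mfge8), the complement receptor (Cr2) and the member with the fewest reads (Coch) are shown because they span the range of FRC levels described here. All are written 5′ to 3′ on the gene's strand, and capitals mark each GC box (GGGCGG, either strand).
Mfge8, chr7:79149011-79149310, minus strand: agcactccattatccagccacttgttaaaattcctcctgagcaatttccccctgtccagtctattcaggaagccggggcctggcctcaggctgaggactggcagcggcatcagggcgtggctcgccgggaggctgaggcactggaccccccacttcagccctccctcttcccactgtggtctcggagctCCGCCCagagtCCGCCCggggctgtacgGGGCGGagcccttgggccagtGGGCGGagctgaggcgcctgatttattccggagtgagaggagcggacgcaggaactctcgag
Cr2, chr1:195176670-195176969, minus strand: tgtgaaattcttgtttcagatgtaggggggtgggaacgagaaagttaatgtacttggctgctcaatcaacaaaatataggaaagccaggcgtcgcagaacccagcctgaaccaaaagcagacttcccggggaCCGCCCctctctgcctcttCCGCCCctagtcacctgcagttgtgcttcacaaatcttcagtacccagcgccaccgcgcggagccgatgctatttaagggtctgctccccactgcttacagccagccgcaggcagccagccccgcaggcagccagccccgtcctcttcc
Coch, chr12:51593091-51593390, plus strand: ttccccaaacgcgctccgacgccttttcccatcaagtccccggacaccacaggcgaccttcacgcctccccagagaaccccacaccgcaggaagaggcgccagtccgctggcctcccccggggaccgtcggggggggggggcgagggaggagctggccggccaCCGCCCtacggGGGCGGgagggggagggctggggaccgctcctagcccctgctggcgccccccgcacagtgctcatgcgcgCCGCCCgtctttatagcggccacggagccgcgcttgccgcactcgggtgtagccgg
The Mfge8 window held 4 GC boxes, the Coch window 3 and the Cr2 window 2, against at least 1 in 35.7% of 32841 RefSeq mouse windows of this length. Fcgr2b, whose window lies at chr1:170976022-170976321 on the minus strand, had none. G and C made up 64.3% of the Mfge8 window, 73.7% of the Coch window, 57.3% of the Cr2 window and 48% of the Fcgr2b window, beside a median of 52.7% over all windows. CpG pairs numbered 17, 32, 14 and 6 in that order, with a median of 7 over all windows. The letters of a TATA box (TATAAA, either strand) were found only in the Coch window among the 4, and in 13.6% of all windows. The Coch match starts at +4, after the annotated gene start, and lies on the opposite strand. CCAAT, the NF-kappaB consensus and the Sox core ACAAAG, searched on both strands, matched none of the 4 and were in 37.4%, 4.51% and 18.7% of all windows. The windows of Mfge8 and Coch were thus alike in GC boxes and high in G and C, while the 2 genes stood at opposite ends of the members' levels in FRC.

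The libraries held 12416032 to 18052362 counted reads in control FRC, 15823379 to 21710946 in PEG FRC, 14392146 to 17160900 in control HEV and 3115003 to 19948766 in PEG HEV. The shallowest is HEV PEG library 16. Libraries are called by the numbers in their labels. Numbers 1 to 9 stood apart from 10 to 24 in an earlier look at these counts, so values within each set are given where they change a result; the sets rest on numbers, not on a label of theirs. The sorts matched their labels: all 9 pan-fibroblast genes were lower and all 12 pan-endothelial genes higher in HEV than in FRC, with and without PEG (edgeR quasi-likelihood test, adjusted p under 0.05). HEV control library 9 held fibroblast reads at 1.93% of the FRC control median, against 0.024% to 0.22% in the other HEV libraries. In all that follows CPM is a gene's read count scaled to a common library total, and fewer cells of a type and less RNA per cell cannot be told apart in such sorted bulk samples.

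Per transcript length, Mfge8 and Clu stood far above the other members in every group. In control FRC the median deposited RPKM was 1047 for Mfge8 and 443 for Clu, above 99.9% and 99.6% of the detected genes. Bst1 and Sox9 followed at 6.76 and 6.00 RPKM, and their ranges overlapped, with 4.03 to 24.2 for Bst1 and 3.81 to 8.55 for Sox9. Cr2 was at 0.914, Fcgr2b at 0.315 and Coch at 0.0199 RPKM, and the ranges of these 3 overlapped as well. The canonical antigen-trapping receptors and cochlin were therefore the members with the lowest levels per length in the FRC sort, and the 2 secreted proteins Mfge8 and Clu the highest. PEG FRC had the same leading pair at 997 and 562 RPKM, with Sox9 at 7.09, Bst1 at 7.00, Fcgr2b at 0.716, Cr2 at 0.568 and Coch at 0.0163. In HEV cells Clu (641 RPKM in controls, 509 under PEG) came before Mfge8 (578 and 416), and the ranges of the pair overlapped in both groups. Sox9 was at 0.260 and 0.479 RPKM there, Cr2 at 0.183 and 0.0131.

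**Figure D1:**
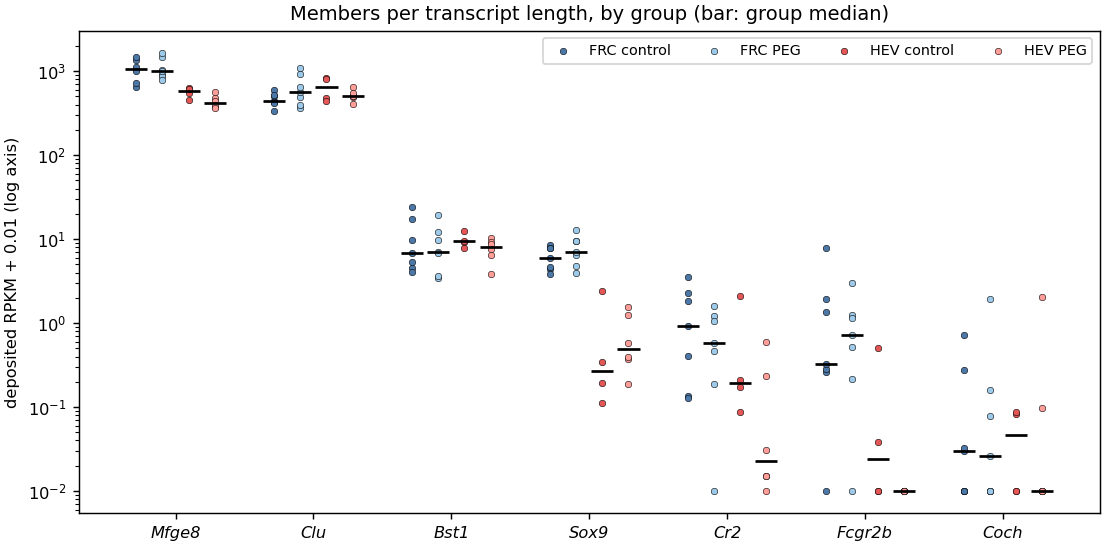
Deposited RPKM plus 0.01 on a log axis for the 7 members, with 1 point per library and a bar at each group's median. Group medians of Mfge8 and Clu lie between 416 and 1047 RPKM in all 4 groups, and those of Sox9 are 6.00 and 7.09 in FRC against 0.260 and 0.479 in HEV.

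The first comparison asked which of the sorted populations carried each marker, among controls and again, in other libraries, under PEG. Mfge8 and Sox9 were lower in HEV than in FRC in both comparisons. Clu and Bst1 did not pass the test in either, and Cr2, Fcgr2b and Coch had few reads, unevenly spread over libraries. Of the 6 members with enough reads to be tested among controls, 2 passed, both lower in HEV, where 24.6% of all 15743 genes tested passed in either direction and 14.2% passed as lower. Under PEG 5 members were tested and the same 2 passed as lower, against 26.8% of 14991 genes in either direction and 14.4% lower. The median log2 fold change of the tested members was -1.18 among controls and -1.34 under PEG, beside -0.16 and -0.08 over all genes tested.

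Mfge8 had a lowest, median and highest level of 1795, 2894 and 4167 CPM in control FRC, and of 2216, 2802 and 4576 CPM in PEG FRC. The 4 control HEV libraries had 1264, 1512, 1619 and 1710 CPM, and the 6 PEG HEV libraries ran from 999 over a median of 1134 to 1516 CPM. No HEV library reached the lowest FRC library of its treatment. The share of all genes whose groups separate in this way was not counted, here or for Sox9 below. The HEV level was 1526 ± 193 CPM (SD, n = 4) against 2917 ± 833 (SD, n = 7) among controls, and 1199 ± 192 (n = 6) against 3080 ± 933 (n = 7) under PEG. The fitted log2 fold change was -0.72 ± 0.19 (SE; edgeR adjusted p = 0.0146) among controls, which is 1.65-fold lower with a 95% interval of 1.24 to 2.18. Under PEG it was -1.34 ± 0.17 (edgeR adjusted p = 4.9e-05), or 2.54-fold lower with an interval of 1.96 to 3.29. Mfge8 thus remained an abundant transcript of the venule cells even where it was lower. The call among controls was lost in libraries 10 to 24 alone (-0.28, edgeR adjusted p = 0.516) and without HEV control 8, 9 or 24 (edgeR adjusted p of 0.091, 0.0695 and 0.0518), while the call under PEG held in all 13 fits that left out a library.

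Sox9 showed the widest separation of the members that passed. Its lowest, median and highest levels were 19.8, 32.5 and 46.7 CPM in control FRC and 21.4, 37.4 and 68.6 CPM in PEG FRC. Control HEV libraries had 0.556, 0.955, 1.81 and 12.8 CPM, and PEG HEV libraries ran from 0.948 over 2.69 to 8.03 CPM. HEV control 8 was the high library of its group, and it too lay below every control FRC library. The log2 fold change was -3.38 ± 0.91 among controls (edgeR adjusted p = 0.0177) and -3.74 ± 0.64 under PEG (edgeR adjusted p = 5.4e-04), which are 10.4-fold and 13.3-fold lower with 95% intervals of 2.63 to 41.4 and 5.13 to 34.8. Among controls the call was lost within libraries 1 to 9 (-1.59, edgeR adjusted p = 0.443), without HEV control 9 (adjusted p = 0.0658) and without HEV control 17 (adjusted p = 0.0586), and the log2 value without HEV control 8 was -5.09. Sox9 is also a crypt epithelial gene, and summed levels of 14 epithelial markers ran from 50.1 to 1785 CPM in control FRC, 83.1 to 4078 in PEG FRC, 13.5 to 584 in control HEV and 41.6 to 2592 in PEG HEV. Epcam, the defining marker, was read at a mean of 71.4 CPM in control FRC and 187 CPM in PEG FRC, and at 61.2 and 188 CPM in the HEV groups. The part of epithelial reads in the Sox9 difference was not tested.

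**Figure D2:**
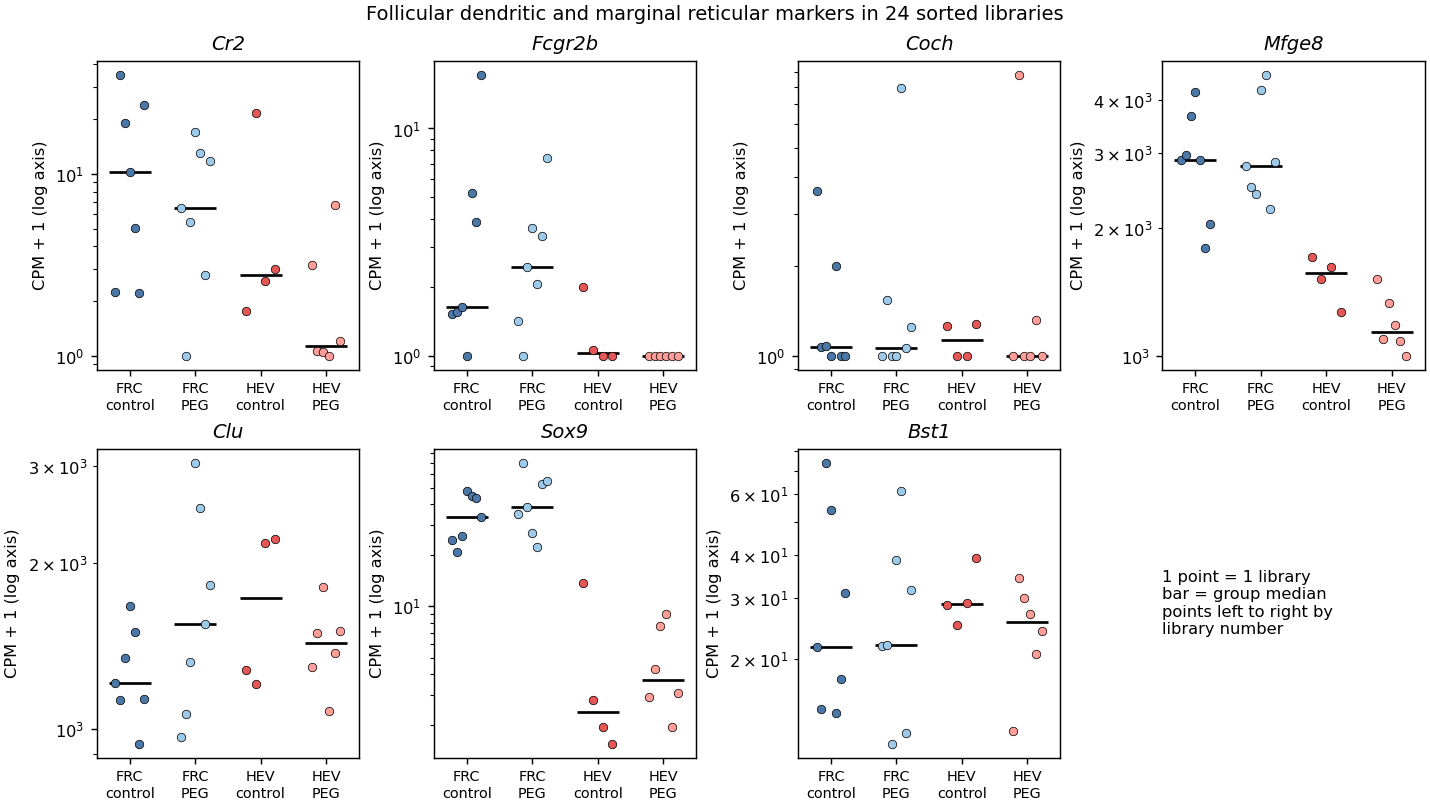
CPM plus 1 on a log axis for each member, with 1 point per library, ordered left to right by library number, and a bar at the group median. HEV and FRC points are separate for Mfge8 and Sox9, overlap for Clu and Bst1, and for Fcgr2b and Coch most HEV points are at 0. The share of all genes with separate groups was not counted.

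Clu, a secreted chaperone with a broad tissue range, was read at similar levels in both cell types. Control FRC libraries had 940, 1210 and 1671 CPM (lowest, median, highest) and control HEV libraries 1205, 1279, 2173 and 2210 CPM. PEG FRC had 967, 1548 and 3034 CPM and PEG HEV 1080, 1431 and 1809 CPM. Groups overlapped throughout. HEV against FRC gave a log2 fold change of 0.43 ± 0.23 among controls (95% interval -0.07 to 0.94, edgeR adjusted p = 0.212) and -0.35 ± 0.20 under PEG (-0.78 to 0.07, edgeR adjusted p = 0.217). Among controls Clu did pass as higher in HEV within libraries 10 to 24 (1.20, edgeR adjusted p = 0.0063) and without HEV control 9 (0.73, edgeR adjusted p = 0.0331), and libraries 1 to 9 gave 0.06.

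Bst1 likewise did not separate the populations. Its levels were 12.9, 20.6 and 72.9 CPM (lowest, median, highest) in control FRC, 10.3, 20.9 and 60.4 in PEG FRC, 23.9, 27.5, 28.0 and 38.2 in the 4 control HEV libraries, and 11.3, 24.5 and 33.3 in PEG HEV. FRC libraries were the more scattered, with an SD of 23.1 CPM in controls against 6.13 CPM in control HEV. The log2 fold change was 0.03 ± 0.59 among controls (95% interval -1.25 to 1.31, edgeR adjusted p = 0.980) and -0.41 ± 0.35 under PEG (-1.17 to 0.35, edgeR adjusted p = 0.457), so differences of more than 2-fold either way remained inside the first interval.

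Cr2, the complement receptor gene, was read in all 7 control FRC libraries but at very unequal levels. These were 1.20, 1.23, 4.04, 9.18, 18.0, 22.9 and 34.0 CPM, the top value being library 5. PEG FRC libraries ran from 0 over a median of 5.48 to 16.0 CPM, and 6 of 7 held reads. Control HEV had 0.759, 1.57, 2.01 and 20.7 CPM, so that HEV control 9 alone held 84.8% of the 420 reads of its group, and PEG HEV had 0, 0.132 and 5.77 CPM (lowest, median, highest). Most venule libraries were thus near 0 and library 9 was as high as the upper FRC libraries. HEV against FRC gave -1.64 ± 1.51 on the log2 scale among controls (95% interval -4.94 to 1.66, edgeR adjusted p = 0.501) and -2.86 ± 1.65 under PEG (-6.40 to 0.68, edgeR adjusted p = 0.239). Pooled CPM values were 1.81 times as high in control FRC as in control HEV (95% interval 1.62 to 2.03, exact binomial, counting error only) 1.33 times as high without FRC control 5 and 8.61 times as high without HEV control 9. The fitted value turned to 0.23 without FRC control 21, so no direction can be given among controls. Library 9 is also the venule library with the most fibroblast reads, whose part in its Cr2 level was not tested.

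B cells are the other main carriers of Cr2 in a Peyer's patch, and 12 B cell markers were therefore summed in each library. The sums were 2.09 to 22.0 CPM in control FRC and 3.09 to 28.2 CPM in PEG FRC, with 4 to 10 of the 12 at 0 in every FRC library, and 12.2 to 52.4 CPM in control HEV and 12.6 to 74.9 CPM in PEG HEV. The part of B cells in the Cr2 levels was not tested, here or by the correlation below. The mean B cell level in FRC libraries was low, from 0.150 to 1.08 as log2(CPM + 1). This limits what a correlation with it can show. FRC control 5, with the most Cr2, had 10 of 12 markers at 0 and a sum of 8.61 CPM, and FRC control 21, with 22.9 CPM of Cr2, had a sum of 2.09 CPM. FRC PEG 10 had the highest sum of the FRC libraries, 28.2 CPM, and also the most Cr2 of PEG FRC, 16.0 CPM. Across the 14 FRC libraries Cr2 and the mean B cell level had a Pearson r of 0.025 (permutation p = 0.932) and a Spearman rho of -0.209 (permutation p = 0.474), with -0.144 within libraries 1 to 9 and -0.015 within 10 to 24, and -0.404 without libraries 10 and 12, the 2 farthest from the median B cell level.

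Fcgr2b, the inhibitory IgG receptor, was read in 6 of 7 control FRC libraries, at 0, 0.529, 0.551, 0.644, 2.88, 4.21 and 16.2 CPM, and in 6 of 7 PEG FRC libraries, at 0, 0.415, 1.06, 1.46, 2.36, 2.63 and 6.38 CPM. All 6 PEG HEV libraries were at 0, and control HEV libraries had 0, 0, 0.058 and 1.01 CPM. Reads of this receptor were thus nearly confined to the FRC sort, at low levels. Among controls the groups overlapped and the log2 fold change was -3.26 ± 2.52 (95% interval -8.77 to 2.25, edgeR adjusted p = 0.409). Pooled CPM values were 13.4 times as high in control FRC (407 reads) as in control HEV (17 reads, 16 of them in library 8), with an exact counting interval of 8.25 to 23.2, and 5.54 times as high without FRC control 21, which held 64.6% of the FRC reads. Under PEG 235 FRC reads stood against 0, at least 51.6-fold higher in FRC against a floor of 3 counts over the HEV group. FRC PEG 19 held 43.0% of these FRC reads. The filter on low counts left the gene untested in that comparison, where the groups met at 0 in FRC PEG library 2. Other settings did test it, and it passed as lower in HEV. The log2 value was -7.91 in 1 model of all 24 libraries (edgeR adjusted p = 0.00737) and -8.33 in libraries 10 to 24 (edgeR adjusted p = 0.0109). Without the filter it was -8.12 (edgeR adjusted p = 0.00166). With every PEG HEV library at 0, these calls rest on FRC reads alone and the size of the values is not fixed.

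Coch had almost no reads outside 3 libraries. FRC PEG 11 held 111 of the 126 reads of its group (6.93 CPM), HEV PEG 14 held 139 of 143 (7.78 CPM) and FRC control 4 held 44 of 64 (2.59 CPM). The other 21 libraries had at most 0.997 CPM, and 12 of the 24 had none. HEV PEG 14 also held 169 of the 174 Cxcl13 reads of its group (9.45 CPM), while its pan-fibroblast sum was 0.0296% of the FRC control median, near the low end of the HEV libraries. Some genes of other cells had most of their PEG HEV reads in this library too. It held 320 of the 358 reads of Lyz2, a macrophage marker, and 5480 of the 5608 reads of Olfm4, an epithelial marker, in its group. Other markers of these cells did not follow: HEV PEG 7 held all 414 C1qa reads of the group, and HEV PEG 23 had the most Epcam reads. Summed macrophage and dendritic cell markers were 68.4 CPM in HEV PEG 14 and 96.1 CPM in HEV PEG 7. Summed epithelial markers were 1146 CPM in HEV PEG 14 and 2592 CPM in HEV PEG 23. Coch did not pass the low-count filter in either comparison of the cell types, and no direction between them can be given.

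**Figure D3:**
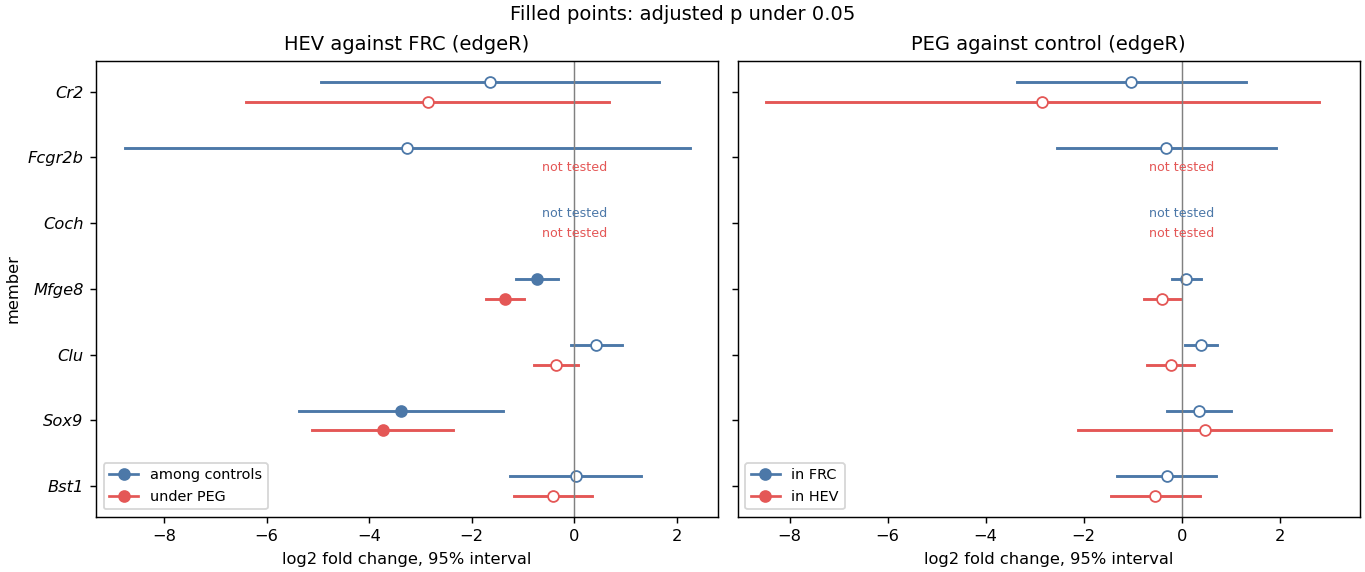
Log2 fold changes from edgeR with 95% intervals for HEV against FRC (left) and PEG against control (right); filled points passed at an adjusted p under 0.05. Only Mfge8 and Sox9 are filled, both left of 0 in the comparisons of cell types, and intervals of Cr2 and Fcgr2b span several log2 units.

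PEG was then compared with control within each cell type. No member passed in FRC (6 tested, 0 called, where 0% of 14595 genes passed) or in HEV (5 tested, 0 called, 0% of 14308). Over all genes edgeR gave 989 and 886 genes with an unadjusted p under 0.05, and DESeq2 called 55 and 116 genes, no member among them. Clu had the smallest p of the members in FRC, with a log2 fold change of 0.40 ± 0.15 (95% interval 0.08 to 0.72, unadjusted p = 0.0189, edgeR adjusted p = 0.647) and 5 of 7 PEG libraries above the control median. The sets differed: within libraries 10 to 24 PEG FRC had 2231 ± 674 CPM against 1312 ± 334 (SD, n = 4 each; log2 0.78, edgeR adjusted p = 0.171), and within libraries 1 to 9 it had 1118 ± 184 against 1227 ± 109 (SD, n = 3 each; log2 -0.13, edgeR adjusted p = 0.999).

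The other members were as uncertain in FRC. Mfge8 gave 0.10 ± 0.14 on the log2 scale (95% interval -0.19 to 0.39), Sox9 0.36 ± 0.31 (-0.30 to 1.02) and Bst1 -0.30 ± 0.48 (-1.31 to 0.71). Cr2 gave -1.03 ± 1.10 (-3.37 to 1.31) and Fcgr2b -0.31 ± 1.05 (-2.54 to 1.92). edgeR adjusted p-values of these 5 lay between 0.908 and 0.993. The i5 index moves with treatment, since all 7 PEG FRC libraries carry an index that 3 of 7 controls share, and Cr2 turned to 1.41 and Fcgr2b to 1.30 within that index.

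In HEV cells Mfge8 had the smallest p, with -0.40 ± 0.17 on the log2 scale (95% interval -0.77 to -0.03, unadjusted p = 0.0367, edgeR adjusted p = 0.794), and all 6 PEG libraries were below the control median. Bst1 gave -0.54 ± 0.42 (-1.45 to 0.37), Clu -0.23 ± 0.22 (-0.71 to 0.26), Sox9 0.47 ± 1.18 (-2.12 to 3.06) and Cr2 -2.84 ± 2.57 (-8.48 to 2.80). Without HEV control 9 the Cr2 value was 0.94, so its sign rested on that library. Fcgr2b and Coch were not tested there.

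A model of all 24 libraries tested whether the PEG effect differed between the cell types, and 0 of 7 members passed, beside 2 of 18203 genes (0.011%). Clu was at -0.79 ± 0.31 on the log2 scale (95% interval -1.43 to -0.15, unadjusted p = 0.0175, edgeR adjusted p = 0.388) and Mfge8 at -0.59 ± 0.25 (-1.10 to -0.08, unadjusted p = 0.0246, edgeR adjusted p = 0.412), a negative value being a lower PEG effect in HEV. Fcgr2b had an edgeR adjusted p of 0.447, and Cr2, Sox9, Bst1 and Coch gave -1.11, -0.44, -0.28 and 0.58 with edgeR adjusted p-values of 0.921 to 0.989. These values share their libraries with the effects within each cell type.

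Other genes of follicle stroma, a list of 18 of which 17 were matched, give the surrounding picture. Among controls 16 were tested, and 5 were higher and 7 lower in HEV than in FRC, with a median log2 fold change of -0.52 beside -0.16 over all genes. Under PEG 5 were higher and 8 lower of 16, with a median of -0.41 beside -0.08. The lower genes included the marginal reticular cytokines: Cxcl13, which draws B cells to follicles, was at 280 ± 149 CPM (SD, n = 7) in control FRC and had 3 reads over the 4 control HEV libraries. That is a ratio of 5582 with an exact counting interval of 1910 to 27070 (edgeR adjusted p = 2.9e-08). Under PEG the ratio was 106 with an interval of 91.5 to 124 (edgeR adjusted p = 2.9e-04), and 2874 without HEV PEG 14. Tnfsf11, the RANK ligand, had a mean of 29.4 CPM in control FRC, from 0 to 87.7 CPM, and was at 0 in all 10 HEV libraries, so that it was at least 633-fold higher in FRC among controls and 479-fold under PEG against a floor of 3 counts over the HEV group. Setting it at these bounds left the medians of the list at -0.52 and -0.41. Its edgeR adjusted p was 0.0052 among controls and 4.6e-04 under PEG. Pdpn, the mucin-like fibroblast surface protein, and the complement genes C3 and C4b were lower in HEV, with log2 values of -11.51, -11.42 and -10.57 among controls and -11.85, -9.64 and -10.65 under PEG. Madcam1 went the other way, with 78.5 ± 46.1 CPM in control FRC and 9368 ± 2087 in control HEV (log2 6.92 ± 0.55, edgeR adjusted p = 1.0e-05, and 7.65 ± 0.34 under PEG), as did Icam1, the integrin ligand, which rose by 2.96 log2 units among controls and by 3.11 under PEG. Madcam1 is the addressin of Peyer's patch venules as well as a marginal reticular gene, and its level in FRC, 12.8 to 158 CPM in controls, lay beside summed levels of 12 pan-endothelial markers of 116 to 407 CPM there. These markers were unequal: Plvap had a mean of 86.2 CPM in control FRC against 2478 in control HEV, and Pecam1 2.22 against 985. The part of endothelial reads in the Madcam1 level was not tested.

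Cxcl13 was read in every FRC library (111.9 to 490.7 CPM) and Tnfsf11 in 13 of 14. Genes of other stroma were in the same libraries. Rgs5, a pericyte gene, was at 797 ± 182 CPM and Myh11, of smooth muscle, at 467 ± 143 CPM in control FRC. The 7 T zone reticular genes listed were unequal there: Cxcl12 had 3030 ± 1150 CPM, Il33 363 ± 72.2, Grem1 333 ± 90.3, Ch25h 74.3 ± 34.9 and Il7 65.1 ± 34.7, while the chemokines Ccl19 and Ccl21a had 0.655 ± 0.631 and 1.65 ± 1.30 CPM (SD, n = 7). These 7 were picked for naming after their values were seen, and their sum ran from 2139 to 5358 CPM. Fcer2a, the low-affinity IgE receptor of activated follicular dendritic cells and B cells, was at 0 in 4 of 7 control and 5 of 7 PEG FRC libraries and at most at 0.616 CPM. Of the follicular dendritic receptors measured here, Cr2 was thus the most often read in FRC (13 of 14 libraries), Fcgr2b was read in 12 of 14 and Fcer2a in 5 of 14.

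PEG moved none of the 16 follicle stroma genes tested in FRC past the threshold (0 higher, 0 lower; 8 values positive and 8 negative, median 0.01 beside 0.01 over all genes) and none of 12 in HEV. In FRC the smallest p was that of Tnfrsf1a, a TNF receptor, at 0.55 ± 0.15 on the log2 scale (edgeR adjusted p = 0.509), followed by Tnfsf13b (BAFF) at 0.41 ± 0.18, Madcam1 at -0.88 ± 0.41 and Ltbr, the lymphotoxin receptor, at 0.27 ± 0.18. Cxcl13 gave -0.16 ± 0.35 and Tnfsf11 -0.63 ± 0.74. In HEV the values were 0.81 ± 0.48 for Il6, -0.30 ± 0.20 for Enpp2, -0.33 ± 0.25 for Relb, 1.45 ± 1.26 for C3 and -0.20 ± 0.20 for Madcam1, with edgeR adjusted p-values of 0.829 to 0.888. For the difference of the PEG effect the smallest p-values were those of Cxcl13 (4.48 ± 1.77), C3 (1.76 ± 0.85), Tnfrsf1a (-0.43 ± 0.28) and Il6 (0.96 ± 0.67), and their edgeR adjusted p-values were 0.400 to 0.660. The Cxcl13 value rests on few HEV reads, 3 in controls and 174 under PEG, of which HEV PEG 14 held 169.

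Members were also compared with each other across the 14 FRC libraries, on log2(CPM + 1). None of the 21 pairs passed after adjustment, although Mfge8 with Clu and Mfge8 with Bst1 both did with a pseudocount of 10 in place of 1 (r of 0.723 and 0.710, adjusted p = 0.0483 for each). Mfge8 with Clu had a Pearson r of 0.723 (permutation p = 0.00307, adjusted 0.061) and a Spearman rho of 0.640 (permutation p = 0.0167, adjusted 0.233). It fell to 0.484 without libraries 10 and 11, and was 0.297 within libraries 1 to 9 and 0.873 within 10 to 24. Mfge8 with Bst1 had an r of 0.698 (permutation p = 0.00581, adjusted 0.061) and a rho of 0.596 (permutation p = 0.027, adjusted 0.233), with 0.572 without libraries 6 and 11, and 0.827 and 0.738 within the sets. Cr2 and Fcgr2b, the antigen-trapping receptors, had an r of 0.270 (permutation p = 0.353, adjusted 0.529) and a rho of 0.202 (permutation p = 0.484, adjusted 0.756), and -0.029 without libraries 19 and 21; within the sets it was 0.430 and 0.237.

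Of 35 relations of a member with the mean level of markers of another cell type, 3 passed by Pearson's r and 1 of them by Spearman's rho. With a pseudocount of 10 only the relation of Fcgr2b with macrophage markers still passed by Pearson's r, while Sox9 with epithelium (0.690, adjusted p = 0.0975) and Fcgr2b with enteric glia (0.569, adjusted p = 0.251) did not. Fcgr2b was lower where macrophage and dendritic cell markers were higher (r = -0.823, permutation p = 1.9e-04, adjusted 0.00665; rho = -0.885, permutation p = 8e-05, adjusted 0.0028), and the r was -0.639 without libraries 19 and 21. The sets of libraries nearly separated on that marker level, and within them r was -0.472 (6 libraries, exact permutation p = 0.393) and -0.772 (8 libraries, exact permutation p = 0.0106, adjusted 0.124), so the relation did not pass within either by Pearson's r. Sox9 was higher where epithelial markers were higher (r = 0.724, permutation p = 0.0035, adjusted 0.0408; rho = 0.723, permutation p = 0.00521, adjusted 0.0608), with 0.678 without libraries 18 and 19, 0.906 within libraries 1 to 9 and 0.641 within 10 to 24, neither of which passed after adjustment. Fcgr2b with enteric glia markers had an r of 0.726 (permutation p = 0.00324, adjusted 0.0408) and a rho of 0.746 (permutation p = 0.00298, adjusted 0.0521), with 0.743 without libraries 18 and 19, and 0.434 and 0.550 within the sets. Sox10, the defining glial gene, was at 0 in 2 of 7 control and 1 of 7 PEG FRC libraries, with means of 1.00 and 0.924 CPM. The part of macrophages, epithelium and glia in the levels of these members was not tested beyond these relations.

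**Figure D4:**
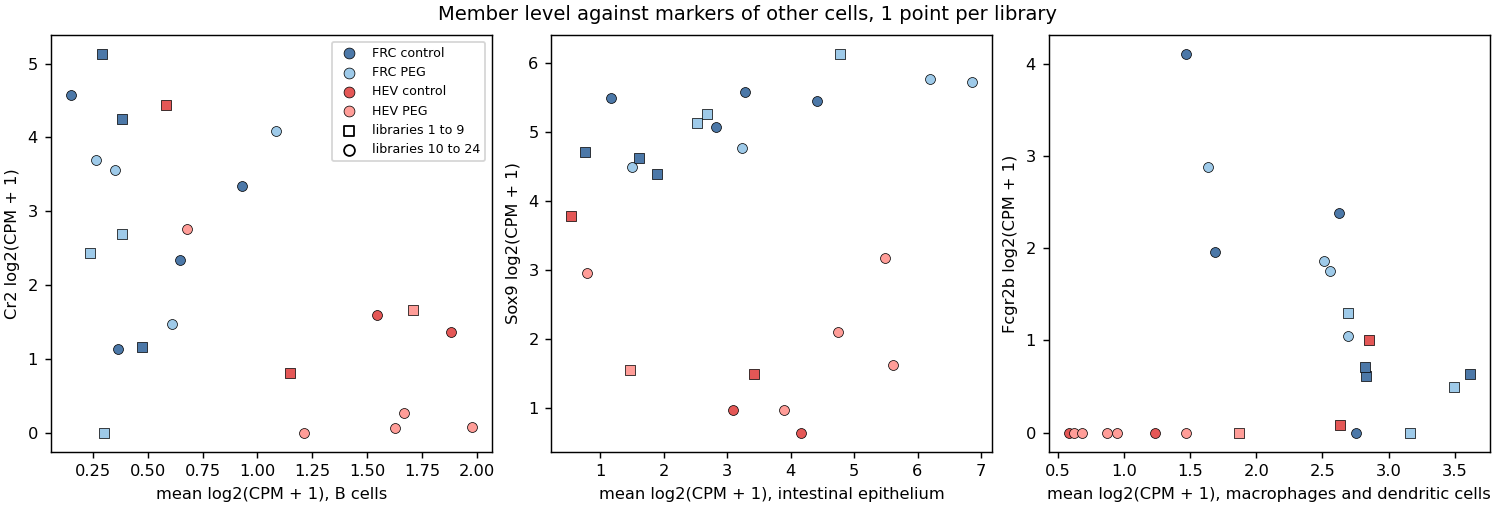
Log2(CPM + 1) of Cr2, Sox9 and Fcgr2b against the mean log2(CPM + 1) of B cell, epithelial, and macrophage and dendritic cell markers, with 1 point per library, squares for libraries 1 to 9 and circles for 10 to 24. In FRC (blue) Cr2 shows no slope with B cell markers (r = 0.025), Sox9 rises with epithelial markers (r = 0.724) and Fcgr2b falls with macrophage markers (r = -0.823).

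Genes whose level across the 14 FRC libraries was most like that of a member were taken from 11617 candidates, by Pearson's r of log2(CPM + 1), as a description with no test. Retsat, a retinol saturase, was the closest to Cr2 (r = 0.923, and 0.961 and 0.924 within the sets), followed by Rabep1 (0.800) and Wdr55 (0.796). Cpxm1, a secreted carboxypeptidase-like protein, was the closest to Clu (0.890; 0.849 and 0.916 within the sets), followed by Itm2b (0.883, but -0.123 within libraries 1 to 9) and Mir5107 (0.834). Mfge8 was matched by Minpp1 (0.824), the lysosomal membrane protein gene Lamp1 (0.816) and G3bp2 (0.804), Sox9 by Gstm3 (0.855), Cyp2j6 (0.801) and Zfp865 (0.798), and Bst1 by Gm34854 (0.823), Spaar (0.792) and Gpr20 (0.768). Fcgr2b and Coch were below the mean of 5 CPM set for this search.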

How the data were processed

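RNA of sorted cells was copied by template switching, built into Nextera libraries and sequenced on a HiSeq, per the labels' protocols. Alignment used GSNAP and build mm9, per the submitters' processing notes; the protocol text names a human build, and versions are not given in the sources used here. Per the labels' protocols, the submitters discarded low-quality and ribosomal reads and used those with a unique alignment. Each deposited file gives, per the file headers, a read count per gene model and an RPKM adjusted by the library's size factor. Within each of 9519 genes the deposited RPKM equalled count over size factor times a constant of the gene (relative tolerance 1e-06). RefSeq (GRCm38.p6) named 85.0% of the identifiers, holding 97.3% of reads. Counts are not stated to use strand.

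Groups follow the labels. Tests used edgeR 4.0.16 (quasi-likelihood, robust, two-sided; filterByExpr minimum of 10, TMM; R 4.3.3) over all genes, Benjamini-Hochberg adjustment and a threshold of 0.05. The covariate was the pool (libraries 1 to 8, 9 to 16 and 17 to 24), inferred from recurring index pairs. It puts library 9 with 10 to 16, and no fit took the sets 1 to 9 and 10 to 24 as a covariate. Library sizes are totals over all gene models. PEG was compared within FRC (14 libraries) and HEV (10), HEV with FRC among controls (11) and under PEG (13), and the effects in all 24. A script with the same fit was tested on simulated data. Alternatives were limma-voom 3.58.1, DESeq2 1.42.0, other scaling, filters, covariates and subsets of libraries. Correlations used log2(CPM + 1) and 100000 resamples, or exact permutation under 10 libraries, with adjustment within each family. Counting intervals are exact binomial at 95%; with PCR copies and no molecular identifiers, they and the floors cover counting error only. Within a cell type each library is another mouse, and p-values rest on that spread; an FRC and an HEV library may share a mouse.

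The members and lists were chosen with earlier results of these data known. Named were all members, of the other follicle stroma genes Cxcl13, Tnfsf11, Madcam1 and the 4 with the smallest p in each comparison, defining markers of other cells, and for each member with a mean of at least 5 CPM the 3 genes with the highest r.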

Additional observations from a re-analysis of the deposited data

Results flagged for a closer look

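Of 27 sets of a member's CPM in a group of 4 to 7 libraries, 8 held a library far from the others by Dixon's criterion. Most of the 8 belong to the genes with few reads. The criterion's rate of about 1 in 20 sets assumes normally distributed values. CPM was used here without a log, and such genes are at or near 0 in many libraries, so the 8 cannot be weighed against that rate. Cr2, the complement receptor, was at 20.7 CPM in HEV control 9, where the next HEV control had 2.01 CPM. Fcgr2b, the IgG receptor, was at 16.2 CPM in FRC control 21 beside 4.21 in the next library, at 6.38 CPM in FRC PEG 19 beside 2.63, and at 1.01 CPM in HEV control 8 beside 0.058. Coch was at 6.93 CPM in FRC PEG 11 beside 0.540, at 2.59 CPM in FRC control 4 beside 0.997, and at 7.78 CPM in HEV PEG 14 beside 0.316. Sox9 was at 12.8 CPM in HEV control 8, with 1.81 CPM in the next HEV control. HEV control 8 thus stood out for Fcgr2b and for Sox9, and HEV control 9 for Cr2. No library stood out in this way for Mfge8, Clu or Bst1.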

How the results depend on the processing

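No paired analysis was possible because replicate numbers are library numbers, which no 2 groups share. Outside the fits that leave out a library, 294 log2 fold changes of members were recomputed, of which 266 kept direction and side of the threshold, 25 turned sign, 2 lost a call and 1 gained one; every sign that turned belongs to a member that had not passed. Leaving out each library gave 1 to 2 members passing between cell types among controls and 2 to 3 under PEG, the third being Fcgr2b when a smaller HEV group, all at 0, let it through the filter. With libraries 1 to 9 alone 1 member passed among controls. The marker relations passing by Pearson's r were 1 with a pseudocount of 10, 0 within libraries 1 to 9 and 0 within 10 to 24 (where Mfge8 with pan-endothelial markers passed by Spearman's rho, -0.976, adjusted exact permutation p = 0.0139), and with a pseudocount of 10 the member pairs passing were 2.

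For PEG in FRC, Cr2 gave 1.27 with pool and i5 index, 0.0853 in libraries 10 to 24 and 1.41 within the index of the PEG libraries, and Fcgr2b 1.21 and 1.30 with the index as covariate and alone. Libraries 1 to 9 gave -0.30 for Mfge8 and -0.13 for Clu; libraries 10 to 24 gave -0.19 for Sox9 and 0.23 for Bst1, and limma-voom 0.17 for Bst1. Leaving out a library took Fcgr2b from -0.90 to 0.22 and Bst1 from -0.56 to 0.15. For PEG in HEV, Cr2 gave 0.52 with pool and i5 index, 0.67 in libraries 10 to 24 and 0.94 within the index of the PEG libraries, and ran from -5.00 to 0.94 without a library. Sox9 gave -0.13 by limma-voom and -0.13 without the pool, -0.43 with pool and index, -0.0781 in 1 model of 24 libraries and -0.54 within that index, and ran from -0.18 to 1.25. Between cell types among controls Bst1 gave -0.034 without the pool and -0.42 in libraries 1 to 9, and ran from -0.17 to 0.38; Cr2 ran from -3.37 (without HEV control 9) to 0.23 (without FRC control 21). For the difference of the PEG effect Coch gave -3.38 and Sox9 2.04 in libraries 10 to 24, and Coch -0.54 and Sox9 1.06 by limma-voom. Fcgr2b gave 1.45 with an SE of 8399 in libraries 10 to 24. Every HEV library of that set was at 0 for Fcgr2b, so this value gives no direction, though it is counted among the signs that turned. Leaving out a library took Cr2 from -3.01 to 0.57, Coch from -0.33 to 2.29 and Sox9 from -0.95 to 1.06. The r of Cr2 with B cells was -0.144 and -0.015 within the sets. The cause was not tested.

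Genes called for PEG were 177 without a filter and 55 by DESeq2 in FRC, and 141, 116 and, in 1 model of all libraries, 18 in HEV. Between cell types among controls they were 2276 in libraries 10 to 24 and 1477 in 1 to 9. For the difference they were 38 without a filter, 350 by DESeq2, 5 without the pool, and 0 by limma-voom, with pool and index, and in libraries 10 to 24. HEV against FRC under PEG could not be fitted with the index, which cannot be told apart from cell type there. Low counts of Cr2, Fcgr2b and Coch limit their precision.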
